A study of Mus musculus with 4 samples.

Results

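The 4 arrays of this mouse study carry a replicate number, and the arrays numbered 1 are compared here with the arrays numbered 2. The comparison is 2 arrays against 2, all 4 of the series, and each number holds 1 array of either treatment, so the treatment is balanced between them. Each array holds RNA of mandibular molar germs, dissected from NMRI embryos at embryonic day 14 and grown in organ culture for 24 h. DMSO 1 and DMSO 2 were cultured with 0.65% of the solvent DMSO, and TCDD 1 and TCDD 2 with 1 µM of the dioxin TCDD, an agonist of the aryl hydrocarbon receptor. All 4 cultures had the same basal medium with fetal calf serum, and the label of DMSO 2 alone also lists ascorbic acid. Each RNA sample was a pool of about 60 explants from 3 experiments, so a number stands for a pool of dissected germs and not for an animal. No label says that the DMSO and TCDD pools of a number came from the same litters or the same experiments. The amount of total RNA labelled differed with the number: 11 µg for both number 1 arrays, 7 µg for DMSO 2 and 8 µg for TCDD 2.

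At this age the molar is passing through the cap stage. An epithelial bud folds around a condensed mesenchyme, and the enamel knot, a small signalling centre in that epithelium, sends Shh, Bmp, Fgf and Wnt signals that shape the crown. The germ lies in the developing jaw, next to alveolar bone, Meckel's cartilage, oral epithelium and the myoblasts of the jaw and tongue muscles, so a dissected germ can carry different amounts of these neighbours. Glycolytic genes and glucose transporters are raised by low oxygen through hypoxia-inducible factors in most tissues. The markers on these arrays fit the labelled tissue in part: mesenchymal Msx1 (541 to 705 in the 4 arrays), Barx1 (179 to 301), Lhx6 and Lhx8 and epithelial Trp63 (184 to 287) and Krt17 (1210 to 1709) were well measured, while the probe sets for Krt5, Krt14 and Krt15 gave signals of 0.6 to 10.8. Signals are MAS5 values, in which a trimmed mean of each array is set to 100.

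The arrays of number 1 and number 2 differed in many small ways, and 1 probe set of 5783 with a mean signal of at least 50 passed limma's test. Differences are given as number 1 minus number 2 on the log2(signal + 16) scale, on which 1 is a doubling and changes of dim probe sets are understated. The probe set that passed, 97264_r_at of Csnk1d (casein kinase 1 delta, a kinase of the circadian clock and Wnt signalling), was lower in number 1 by 2.12 (SE 0.20, limma adjusted p = 0.0193). That is 0.0173% of those tested. Its mean signal was 16.1 in number 1 and 124 in number 2, so it entered the test only through the arrays where it is high, and it did not pass without the signal filter or after quantile normalisation. At an unadjusted p under 0.05 there were 740, 335 of them higher and 405 lower in number 1, and at an adjusted p under 0.1 there were 40 in limma's test, 23 higher and 17 lower. When the treatment was added as a second term, limma called 141 (2.44%) higher and 161 (2.78%) lower in number 1. That fit has 1 residual degree of freedom and gave every probe set of a given signal the same variance, so its calls rest on a pooled spread. The same holds when 1 array is left out, which gave 1089 calls without DMSO 1, 1325 without TCDD 1, 27 without DMSO 2 and 13 without TCDD 2. With 2 arrays against 2 an exact permutation test of a single gene cannot go below a two-sided p of 0.33 and was not run. The p-values measure only the spread between these pooled samples. In the fit without a treatment term, the 2 arrays of a number differ in treatment. Its SEs and p-values therefore include any response to TCDD beside the spread between pools.

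The replicate number accounted for 48.6% of the sum of squares over the tested probe sets, the treatment for 29.6% and the remainder for 21.8%. Each term is a single contrast of the arrays, so noise alone would give all of them equal shares on average. The share of the replicate number lies above an equal share and that of the treatment below it. The larger share of the replicate number did not come from 2 tight groups. DMSO 2 and TCDD 2 were close to each other, with a standard deviation of 0.221 for their log2 differences and 14 probe sets apart by 2-fold or more. DMSO 1 and TCDD 1 stood at a standard deviation of 0.387, with 63 probe sets 2-fold apart, which is as wide as the 0.363 to 0.404 between arrays of different number.

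**Figure D1:**
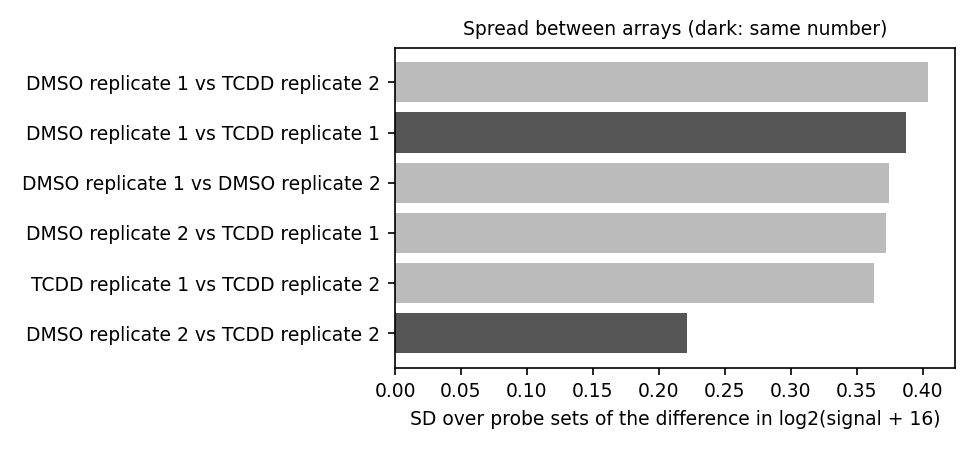
Horizontal bars give, for each of the 6 pairs of arrays, the standard deviation over 5783 probe sets of the difference in log2(signal + 16); dark bars join arrays of the same number. The pair of number 2 arrays has the shortest bar at 0.221, and the pair of number 1 arrays, at 0.387, lies among the pairs of different number.

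Bacterial transcripts (BioB, BioC, BioDn and Cre) that were measured by 9 control probe sets had higher signals on both number 1 arrays than on both number 2 arrays in all 9. The median difference was 1.15 on the log2 scale without an offset and ranged from 0.41 to 1.48. Within the DMSO arrays the median ratio of number 1 to number 2 was 1.99, and within the TCDD arrays it was 2.24. The labels do not give the amounts of these controls, and 15 or 16 µg of cRNA was hybridised to each array. Because every array was scaled to the same mean, all values below are relative to the other mouse transcripts of an array; scaling to the bacterial controls would lower every number 1 value by about the same amount. The number, the amount of RNA labelled and the control signals vary together and cannot be told apart. Of the ratios of 3' to 5' signal, which rise as RNA degrades, beta-actin's was 1.10 on DMSO 1, 1.13 on DMSO 2, 1.23 on TCDD 1 and 1.08 on TCDD 2. The ratios of Gapdh were 0.765, 0.807, 1.13 and 0.779 in the same order. TCDD 1 had the highest value of both. The ratio of the transferrin receptor, at 3' signals of 20.8 to 102, was 1.97 on DMSO 1 and 1.86 on TCDD 1 against 3.27 on DMSO 2 and 3.05 on TCDD 2. Its ratio of 3' to middle signal went the other way, with 5.8 on DMSO 1 and 10.4 on TCDD 1 against 5.0 on DMSO 2 and 4.6 on TCDD 2. The 5' signals of this control were only 11.2 to 31.9 and the middle signals 2.0 to 21.3, so neither ratio ranks the RNA of the numbers. The part of these ratios in the results was not tested.

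**Figure D2:**
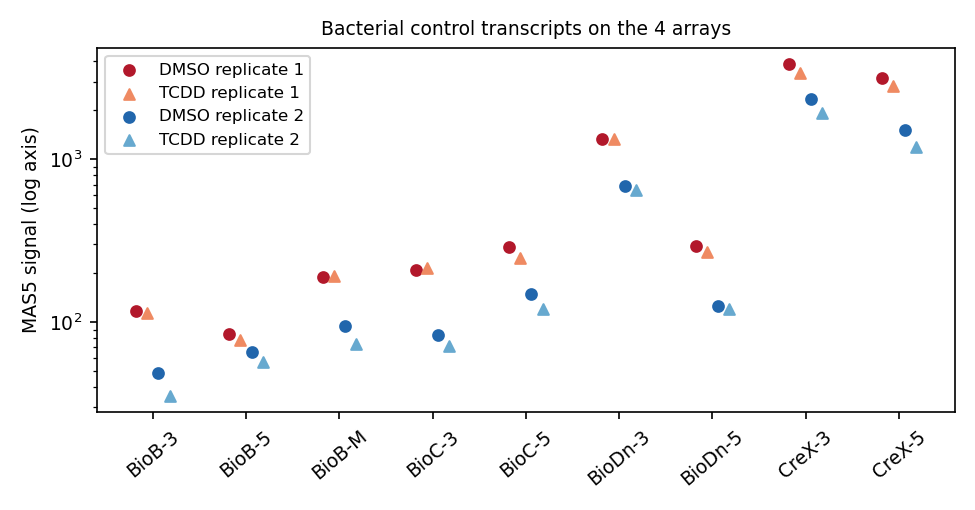
Points give the MAS5 signal, on a log axis, of each of the 9 bacterial control probe sets on the 4 arrays (red and orange, number 1; blue, number 2). In every column both number 1 points lie above both number 2 points, at ratios of 1.29 to 3.24.

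The difference between the DMSO arrays of the 2 numbers can be set against the difference between the TCDD arrays, since these pairs share no array. Over 5783 probe sets they correlated with Pearson's r = 0.381 and Spearman's rho = 0.32, as a description across probe sets, which are not independent replicates. Of 50 probe sets at least 2-fold higher in DMSO 1 than in DMSO 2, 38 (76%) were also higher in TCDD 1 than in TCDD 2, and 10 (20%) by 2-fold. Of 39 that were 2-fold lower, 33 (84.6%) were lower in the TCDD pair as well, and 8 (20.5%) by 2-fold. Starting from the TCDD pair, 34 of 36 higher (94.4%) and 48 of 53 lower (90.6%) went the same way in the DMSO pair. Both number 1 arrays lay above both number 2 arrays for 1209 probe sets (20.9%) and below them for 1360 (23.5%), which is the background for the counts of arrays that do not overlap among measured genes below. Over all 12422 probe sets without a filter the shares are 25.6% and 16.4%, the background for counts over all genes of a list on the array. A difference of at least 2-fold in all 4 pairs of a number 1 with a number 2 array was found for 6 probe sets higher and 5 lower in number 1.

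**Figure D3:**
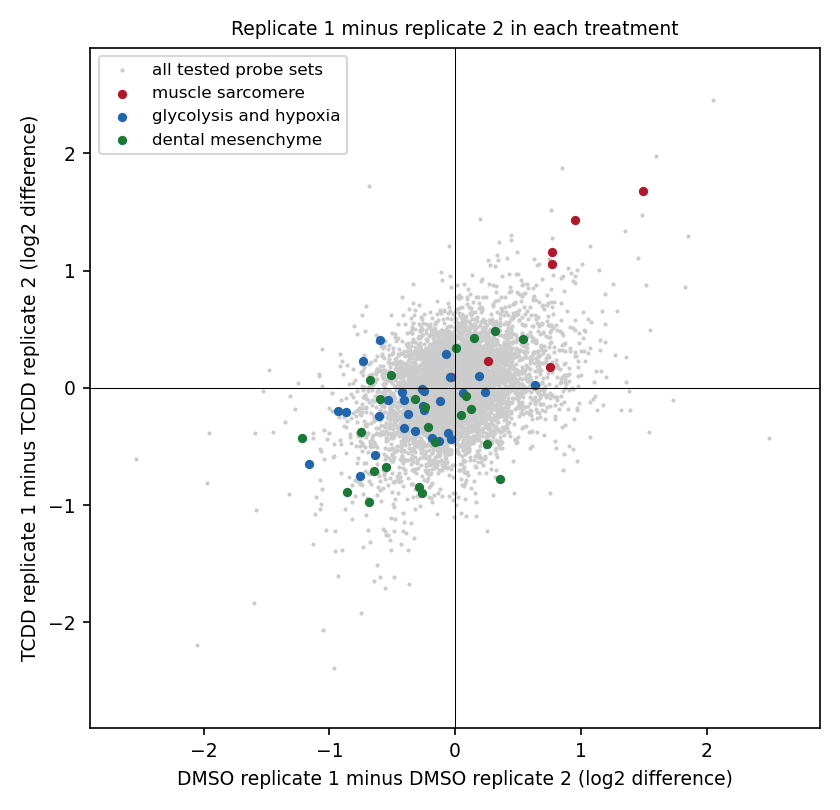
Each point is a probe set, with its difference within the DMSO arrays on the x axis and within the TCDD arrays on the y axis (number 1 minus number 2, log2(signal + 16)). Sarcomere genes (red) lie to the upper right except Tpm1, near the origin, and most glycolysis (blue) and dental mesenchyme genes (green) lie to the left of or below 0; the correlation over all points is 0.381.

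Genes of striated muscle gave the largest difference of any tissue list. Of 36 sarcomere genes on the array, 34 had a higher mean log2 signal in number 1, and for 22 both number 1 arrays lay above both number 2 arrays, with 1 the other way. Over all 12422 probe sets without a filter, 59.7% were higher in number 1, and 25.6% and 16.4% did not overlap, higher and lower. Among the 5783 tested 48.7% were higher, so probe sets under the filter were higher more often than 59.7%. The median difference of the 36 was 0.30, against 0.053 for all 12422. Most of these genes were dim: 7 passed the signal filter, 2 of them only through their number 1 arrays, and the median of those 7 was 0.91 (0.77 in the DMSO pair and 1.05 in the TCDD pair), which the filter inflates. It was 0.58 without DMSO 1 and 0.60 without TCDD 1. None passed limma's test without a treatment term. The fit with it called 4 of the 7 higher, against 2.44% of all tested, and 2 of the 4, Tnnt1 and Myl1, are those that passed the filter only through number 1.

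Actc1, the cardiac alpha actin that embryonic skeletal muscle also uses, had signals of 457 and 612 in DMSO 1 and TCDD 1 and of 152 and 180.3 in DMSO 2 and TCDD 2 (probe set 101029_f_at). The number 1 arrays were above by 1.58 (SE 0.19, limma adjusted p = 0.0584). Its other probe set, 101028_i_at, read 141 and 268 against 21.9 and 35.8, a difference of 2.25. Both probe sets put the 4 arrays in the same order. However, 101028_i_at passed the signal filter only through its number 1 arrays (mean signal 204.45 against 28.85). Both carry suffixes, i and f, of less specific probes. Troponin T1 of slow fibres, Tnnt1, had signals of 63.7 and 129 in number 1 against 25.1 and 37.6 in number 2 (1.20, SE 0.30). Troponin I1, Tnni1, was at 140.1 and 127 against 75.6 and 52.7 (0.91, SE 0.20), and the myosin light chain Myl1 at 56.3 and 88.0 against 26.4 and 30.6 (0.96, SE 0.24). In each of the 3 genes the arrays did not overlap and limma's adjusted p was between 0.14 and 0.18. The embryonic and atrial light chain Myl4 (0.46) and the beta tropomyosin Tpm2 (0.24) were also above in both number 1 arrays. Tpm1, whose isoforms are made by most cell types, differed by 0.03.

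The windows before the start sites of 3 of these genes are shown because these members were higher together; each is the 250 bases upstream in RefSeq's GRCm38.p6 annotation. Actc1 is on the minus strand at chr2:114052876-114053125, Tnni1 on the plus strand at chr1:135799171-135799420 and Tnnt1 on the minus strand at chr7:4515976-4516225. Capitals mark a CArG box (the serum response factor motif) in Actc1, the E-box CAGCTG, which MyoD and myogenin bind, in Tnni1 and the TATA motif TATAAA in Tnnt1.
Actc1: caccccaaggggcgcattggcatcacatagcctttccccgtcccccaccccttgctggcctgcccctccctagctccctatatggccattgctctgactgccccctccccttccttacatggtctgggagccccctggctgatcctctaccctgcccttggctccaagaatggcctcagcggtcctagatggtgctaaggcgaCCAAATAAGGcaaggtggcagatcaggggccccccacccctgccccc
Tnni1: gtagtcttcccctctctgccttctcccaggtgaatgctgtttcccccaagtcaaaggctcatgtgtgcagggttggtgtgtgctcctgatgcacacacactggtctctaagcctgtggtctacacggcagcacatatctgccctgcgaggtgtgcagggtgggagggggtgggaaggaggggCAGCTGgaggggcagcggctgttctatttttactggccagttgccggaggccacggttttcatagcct
Tnnt1: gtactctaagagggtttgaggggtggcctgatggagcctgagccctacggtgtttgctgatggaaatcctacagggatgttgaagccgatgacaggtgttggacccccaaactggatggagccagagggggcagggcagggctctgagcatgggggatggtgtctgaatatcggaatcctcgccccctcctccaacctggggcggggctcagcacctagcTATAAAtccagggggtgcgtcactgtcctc
The CArG box of Actc1 spans bases -47 to -38 from the start site, the CAGCTG of Tnni1 bases -68 to -63 and the TATAAA of Tnnt1 bases -30 to -25. Searching both strands, CAGCTG, which is also 1 form of the wider E-box CANNTG, was in 4 of 8 windows of the 7 measured sarcomere genes (3 genes) and in 13% of 32851 windows of all genes. A CArG box was in 1.47% and TATAAA in 12.4% of all windows. These matches describe the letters and say nothing of binding in these germs.

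Of the myogenic regulators, the 2 that direct myoblast differentiation had higher signals in both number 1 arrays. Myogenin, Myog, was at 103 and 120.1 against 66.1 and 58.0 (0.71, SE 0.18, limma adjusted p = 0.182). Myod1, the determination factor, was at 70.6 and 73.1 against 38.6 and 45.7 (0.60, SE 0.20, limma adjusted p = 0.271), and it passed the signal filter only through its number 1 arrays. The other 4 measured regulators did not share this: Mef2a differed by -0.24, Six4 by -0.34, Rapsn by 0.19 and Eya1 by 0.02. Across the 15 regulators on the array 9 were higher and 6 lower in number 1, with a median of 0.10. Of 31 genes for muscle membrane, calcium handling and energy, 23 were higher and 8 lower, with a median of 0.22, and for 13 both number 1 arrays were above (against 25.6%). Only 2 of these 31 passed the signal filter. Both number 1 arrays were above for 20.9% of tested probe sets, so under the filter the share exceeded 25.6%. That background is thus too low for this list, and the 23 and 13 were not set against dim probe sets alone.

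Smooth muscle actins were higher in number 1 as well. Acta2, alpha smooth muscle actin, was at 204 and 314 in number 1 against 146 and 118 in number 2 (0.87, SE 0.22). Actg2, the enteric gamma actin, was at 229 and 139.7 against 92.8 and 83.1 (0.91, SE 0.23), and Tagln, transgelin, at 207 and 207 against 162 and 92.5 (0.68, SE 0.23). None of these passed limma's test without a treatment term (adjusted p 0.177 to 0.272). Acta2 and Tagln are also expressed by early striated muscle and by contractile fibroblasts. The probe set of Actg2, 93102_f_at, carries the suffix f of less specific probes, as 101029_f_at of Actc1 does. The part of other actins in its signal was not tested. Over the 17 genes on the array for adipose tissue, smooth muscle and pericytes, 11 were higher in number 1 and the median was 0.14, and Mylk, the myosin light chain kinase, went the other way in both pairs (-0.14 and -0.56). The median of the 8 measured was 0.42, and it was 0.25 without DMSO 1 and 0.27 without TCDD 1.

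A few genes of bone and its matrix were higher in number 1 while the list as a whole was not. Ibsp, bone sialoprotein, a mineral-binding protein of osteoblasts and cementoblasts, was at 1029 and 1054 in number 1 and at 480 and 447 in number 2. The difference was 1.14 (SE 0.14, limma adjusted p = 0.0586), and the arrays of each number lay close together. A dimmer probe set of Ibsp, 97572_at, read 95.6 and 72.3 against 94.1 and 89.1 and did not show it (-0.12). Lox, lysyl oxidase, which crosslinks collagen, was at 229 and 299 against 130.0 and 131 (0.92, SE 0.18, limma adjusted p = 0.0995). Mmp13, the collagenase of osteoblasts and hypertrophic cartilage, was at 221 and 323 against 135 and 148 (0.85, SE 0.20). Sparc, osteonectin, was at 569 and 703 against 403 and 351 (0.73, SE 0.17). The fibrillar collagens of bone did not follow: Col1a1 differed by 0.04 (1961 and 2400.3 against 1956 and 2277), and the alkaline phosphatase gene Alpl was lower in both number 1 arrays (164 and 184 against 222 and 212, -0.30). Over the 29 bone genes on the array 19 were higher in number 1, the median was 0.15, and the arrays did not overlap for 9 higher and 5 lower, near the backgrounds of 25.6% and 16.4%. The median of the 20 measured was 0.09, and it was -0.02 in the DMSO pair and 0.11 in the TCDD pair. Of 18 cartilage genes 3 were measured, and Col2a1 and Acan, which define cartilage, had signals of 8.4 to 38.3.

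Scx, scleraxis, the transcription factor of tendon progenitors, was at 154 and 164 in number 1 and at 79.3 and 78.1 in number 2 (0.89, SE 0.16, limma adjusted p = 0.0953). The other tendon and fibrous tissue genes, as a list, did not go with it. The tendon genes Mkx, Tnmd, Thbs4 and Comp had no probe set assigned to them alone, so the list is no test of tendon itself. Of 30 on the array 15 were higher and 15 lower in number 1, and the median of the 21 measured was -0.03. The microfibril gene Mfap2 (849.7 and 568 against 1034 and 1067, -0.58), Twist2 (-0.53), the collagen VI chain Col6a3 (-0.49) and the fibulins Fbln2 (-0.46) and Fbln1 (-0.44) were lower in both number 1 arrays. Col6a1 was lower as well by its brighter probe set (-0.34) and higher by another (0.42). Arrays did not overlap for 1 measured gene higher (Scx) and 8 lower, against 20.9% and 23.5% of all tested probe sets. Fmod and Kera, markers of mature tendon, were dim at 4.8 to 38.2. Kera was higher in both number 1 arrays (13.7 and 10.7 against 7.6 and 4.8), and Fmod overlapped (29.8 and 38.2 against 32.6 and 25.5).

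Epithelial genes were mixed. Of 46 dental and oral epithelial genes on the array 20 were higher and 26 lower in number 1, and the median of the 33 measured was -0.07 (-0.20 in the DMSO pair and -0.09 in the TCDD pair). The arrays did not overlap for 3 measured genes higher and 9 lower, against 20.9% and 23.5% of all tested probe sets. Dsc3, desmocollin 3 of basal desmosomes, was at 30.5 and 24.2 in number 1 and at 86.0 and 85.5 in number 2 (-1.23, SE 0.20, limma adjusted p = 0.0915); it passed the signal filter through its number 2 arrays. Ly6d, a surface protein of stratified epithelia, was at 110.3 and 113 against 242 and 283 (-1.12, SE 0.16, limma adjusted p = 0.0796). Sfn, 14-3-3 sigma of differentiating keratinocytes, was at 185 and 217 against 326 and 337 (-0.69), and Cldn4, a tight junction claudin, at 79.1 and 111 against 138 and 169.7 (-0.62). Krt6a, a keratin of oral and activated epithelium, was lower by both of its probe sets (-0.57 and -0.64). Other epithelial genes were higher in both number 1 arrays: Klf4, a factor of epithelial differentiation (159 and 242 against 108 and 116, 0.73), the adhesion gene Epcam (93.4 and 115 against 63.5 and 70.8, 0.53) and the plakoglobin gene Jup (0.49). Cdh1, E-cadherin, differed by 0.01, with overlapping arrays. Epithelial genes thus lay on both sides of 0.

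Shh, the enamel knot's hedgehog ligand, was among the genes with the largest difference in every pair of arrays. Its signals were 79.5 and 60.8 in DMSO 1 and TCDD 1 and 162 and 184 in DMSO 2 and TCDD 2 (-1.14, SE 0.18, limma adjusted p = 0.0915). Msx2, a knot and mesenchyme homeobox gene (74 and 56.2 against 92.1 and 118, -0.58), Lef1, the Wnt pathway factor needed for tooth budding (242 and 229 against 363 and 376, -0.62), and Bmp7 (59.4 and 70.5 against 93.6 and 102, -0.49) were lower in both number 1 arrays too. The hedgehog targets Ptch1 (617 and 836 against 933 and 773) and Gli1 (83.2 and 89.8 against 95.0 and 129) are given as values. Ptch1 overlapped between the numbers while Gli1 did not. Fgf4, a knot signal (159 and 94.7 against 121 and 95.6), and Bmp4 (204 and 296 against 161 and 207) overlapped. Of 21 knot genes on the array 9 were higher and 12 lower, with a median of -0.20. Among the 14 measured the arrays did not overlap for 1 higher and 6 lower, against 20.9% and 23.5% of all tested probe sets. The medians were -0.25 in the DMSO pair and -0.23 in the TCDD pair. Over both pairs the median was -0.25, and without TCDD 2 it was -0.12.

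Genes of the dental mesenchyme were lower in number 1 more often than higher. This list shares the measured genes Msx2, Lef1, Gli1, Bmp4 and Dlx2 with the enamel knot list, so the 2 lists are not independent. Of 37 on the array 25 were lower and 12 higher, with a median of -0.20 against 0.053 for all probe sets without a filter. The arrays did not overlap for 15 of the 37 lower and 5 higher, against backgrounds of 16.4% and 25.6%. Dim probe sets weigh more in those backgrounds than in this list. Among the 24 measured the arrays did not overlap for 12 lower and 3 higher, against 23.5% and 20.9% of all tested probe sets. The median of the 24 was -0.24, against -0.0085 for all tested. Of these genes 2, Wnt5a and Foxf2, passed the signal filter only through their number 2 arrays. Lhx6, a LIM homeobox gene of the jaw's oral side, was at 158 and 157 against 255 and 267 (-0.68, SE 0.15, limma adjusted p = 0.146). Wnt5a, a noncanonical Wnt ligand, was at 53.3 and 40.1 against 95.4 and 94.3 (-0.83, SE 0.20, limma adjusted p = 0.152). Foxf2, a forkhead factor of oral mesenchyme, was at 44.4 and 29.5 against 93.7 and 68.1 (-0.87, SE 0.24, limma adjusted p = 0.199). These 3 genes had no overlap between the numbers. Dlx1, a homeobox marker of the condensed mesenchyme, was at 133 and 224 against 330.2 and 306, and Msx1 at 605 and 541 against 705 and 687. Barx1, a molar marker, overlapped (301 and 179 against 249.5 and 257). Twist1 (282 and 328 against 253 and 240.1) and Hand1 (98.7 and 64.4 against 62.8 and 44.4) were higher in both number 1 arrays, so the direction was not shared by all mesenchymal genes. In a pooled germ, fewer cells of a type and less of an RNA per cell cannot be told apart.

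Glycolysis and hypoxia genes were lower in number 1 more often than higher. Of 40 on the array 27 were lower and 13 higher, with a median of -0.21. Over these 40 the arrays did not overlap for 21 lower and 5 higher, against backgrounds of 16.4% and 25.6%. Of the 29 measured, 1 only through its number 2 arrays, 23 were lower and 6 higher. Among these 29 the arrays did not overlap for 19 lower and 1 higher, against 23.5% and 20.9% of all tested probe sets. The median of the 29 was -0.24 (-0.27 in the DMSO pair and -0.16 in the TCDD pair). Bright probe sets as a whole were lower in number 1: the median was -0.09 for 638 with a mean signal of at least 500, -0.04 for those from 200 to 500 and 0.05 for those from 50 to 100. Several glycolytic enzymes are in that bright range, and the median of the list was -0.23 after quantile normalisation. Limma's test without a treatment term called none of the 29, and the fit with it called 5, all lower, against 2.78% of all tested. Such calls were not particular to this list and the sarcomere list. The same fit called 5 of 24 measured mesenchyme genes, all lower, and 4 of 33 epithelial genes lower and 1 higher. It called 4 of 20 bone genes and 3 of 8 adipose, smooth muscle and pericyte genes, all higher, against 2.44% of all tested.

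Slc2a1, the GLUT1 glucose transporter, was at 65.2 and 113 in number 1 and at 166 and 186 in number 2 (-0.91, SE 0.23, limma adjusted p = 0.181). Pkm, pyruvate kinase, which makes pyruvate in the last step of glycolysis, was at 991 and 963 against 1685 and 1634 (-0.76, SE 0.13, limma adjusted p = 0.0915). A second Pkm probe set, 162032_f_at, did not differ in this way (0.00). Tpi1, triosephosphate isomerase, was at 746 and 688 against 1168 and 1029.7 (-0.60, SE 0.15), and Pgam1, phosphoglycerate mutase, at 582 and 809.8 against 1127 and 933 (-0.57, SE 0.19). Ldha, lactate dehydrogenase A, was at 1155 and 1375 against 1761 and 1628 (-0.42, SE 0.15), and Aldoa, an aldolase, at 498 and 527 against 666 and 674 (-0.38, SE 0.14). In each of these 6 genes both number 1 arrays lay below both number 2 arrays. Kdm3a, a histone demethylase induced by hypoxia (-0.54), Pdk1, which holds pyruvate out of mitochondria (-0.32), and Ddit4, a stress gene (-0.34), were lower in both arrays. Higd1a, a hypoxia gene of mitochondria, was higher (83.5 and 57.6 against 48.1 and 56.3, 0.33). Pgk1, also a glycolytic enzyme, went opposite ways in the pairs (492 and 729 against 827 and 619).

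The windows of Slc2a1, on the plus strand at chr4:119108495-119108744, and Ldha, on the plus strand at chr7:46845554-46845803, are shown for the same reason, again 250 bases from RefSeq's GRCm38.p6. Capitals mark ACGTG, the core that hypoxia-inducible factors bind, on either strand; where it runs into the E-box CACGTG, which contains it on both strands, all 6 letters are in capitals.
Slc2a1: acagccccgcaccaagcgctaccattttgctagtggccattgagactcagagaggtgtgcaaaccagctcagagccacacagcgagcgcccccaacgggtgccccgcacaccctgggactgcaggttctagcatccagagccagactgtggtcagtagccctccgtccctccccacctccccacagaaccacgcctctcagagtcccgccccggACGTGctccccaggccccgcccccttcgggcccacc
Ldha: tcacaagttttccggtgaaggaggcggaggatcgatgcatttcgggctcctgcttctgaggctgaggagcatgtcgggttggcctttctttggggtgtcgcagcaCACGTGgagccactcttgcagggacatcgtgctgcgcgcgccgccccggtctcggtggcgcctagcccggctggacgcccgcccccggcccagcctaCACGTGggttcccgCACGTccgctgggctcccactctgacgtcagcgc
Slc2a1 holds the core at bases -36 to -32. Ldha holds it on both strands from -145 to -140 and again from -48 to -43, and also at -34 to -30. ACGTG was in 19 of 40 windows (47.5%) of 27 of the measured genes, 16 of which had it, and in 16.6% of 32851 windows of all genes. The hypoxia part of the list was drawn up from genes known to respond to these factors, so its share of the motif is a description of the list.

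**Figure D4:**
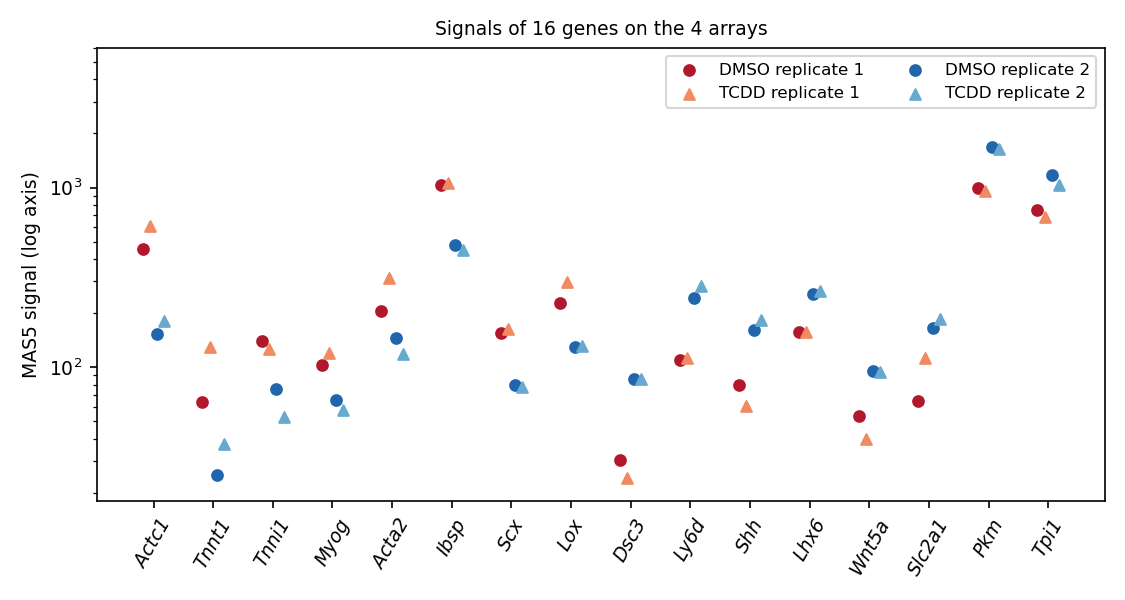
Points give the MAS5 signals, on a log axis, of 16 genes on the 4 arrays (red and orange, number 1; blue, number 2; circles, DMSO; triangles, TCDD). The 8 genes on the left, from Actc1 to Lox, have both number 1 points above, and the 8 on the right, from Dsc3 to Tpi1, have both below.

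Lists for growth and for the cell's basic supply showed no common direction. Proliferation genes were split evenly, with 20 higher and 21 lower among 41 measured (median -0.04), and so were 35 genes of the mitochondrial respiratory chain (17 higher, 18 lower, median 0.00) and 18 of cholesterol synthesis (8 higher, 10 lower, median -0.01). Single members stood apart: Cycs, cytochrome c, was at 102 and 124 against 52.8 and 55.6 (0.87, SE 0.18), and Hmgcs1, at the start of cholesterol synthesis, at 587 and 519.7 against 340 and 354 (0.65, SE 0.15). Of 29 measured immediate early and heat shock genes 21 were lower in number 1, with a median of -0.15 (-0.20 in the DMSO pair and -0.07 in the TCDD pair). Without DMSO 1 this median was -0.007, without TCDD 2 -0.10 and without TCDD 1 -0.30. Fos was at 79.5 and 123 against 178 and 173 (-0.73), and Ier3 at 167 and 251 against 306 and 458 (-0.82). None of these 4 genes passed limma's test without a treatment term. A list for collagen modification was drawn up because only DMSO 2 was listed with ascorbic acid. Its 9 measured genes had a median of -0.14, and it was -0.05 in the DMSO pair and 0.00 in the TCDD pair. Beside genes of the ascorbate-dependent hydroxylases the list holds Lox, Serpinh1, Ppib, Crtap and the transporter Slc23a2. Its median is thus no measure of the ascorbate-dependent steps alone.

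**Figure D5:**
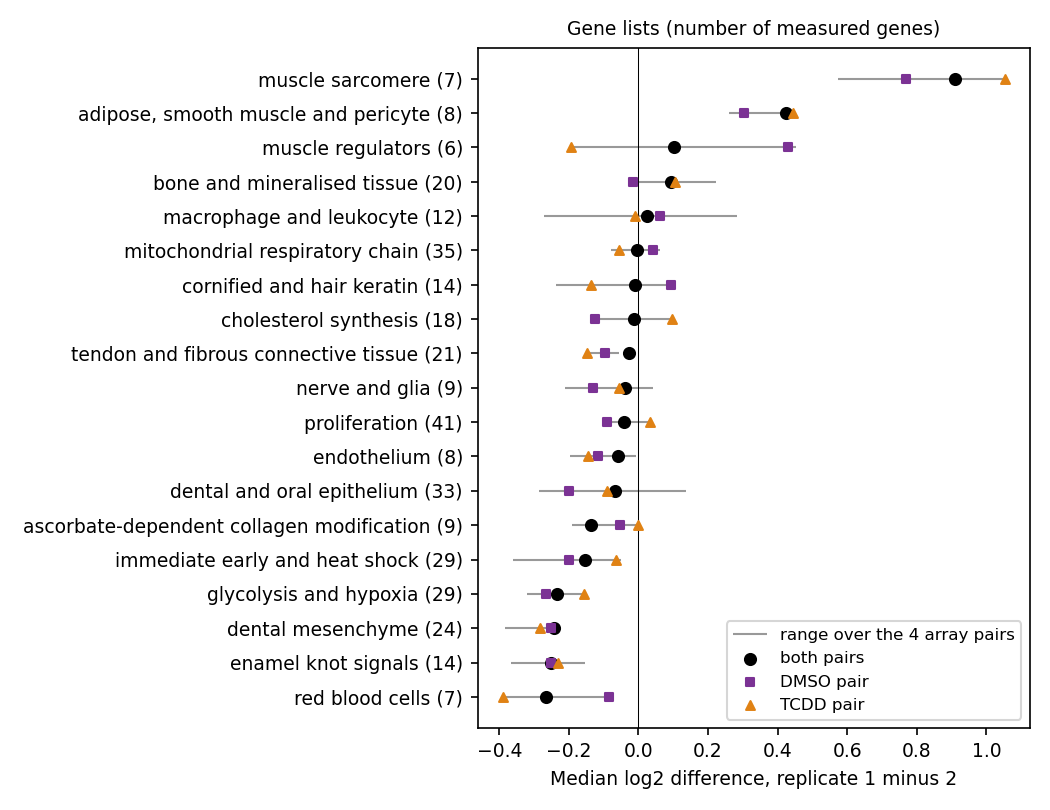
For each list with at least 5 measured genes the black point is the median log2 difference of number 1 minus number 2, the square that of the DMSO pair, the triangle that of the TCDD pair and the line the range over the 4 pairs of arrays. The sarcomere list is far to the right at 0.91, with the smooth muscle list at 0.42, and red blood cell, enamel knot, mesenchyme and glycolysis genes lie to the left at -0.24 to -0.27.

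Other cell types that a dissected germ could hold were checked in the same way. Red blood cell genes had a median of -0.27 over 7 measured (-0.08 in the DMSO pair, -0.39 in the TCDD pair and -0.13 without TCDD 1), 6 of them lower in number 1; Alas2, which starts haem synthesis in red cells, was at 57.2 and 63.2 against 82.3 and 87.8 (-0.41). Endothelial genes (8 measured, median -0.06), macrophage genes (12, 0.03) and nerve and glial genes (9, -0.04) gave both directions. Sox18, an endothelial transcription factor, was at 95.6 and 72.3 against 129 and 119 (-0.50), and Pmp22, a myelin gene also found in mesenchyme, at 113 and 130.3 against 76.9 and 79.1 (0.55). Keratins of cornified tissue and hair had a median of -0.01 over 14, and -0.44 without DMSO 2. Among them Krt86, a hair keratin, was at 108 and 111 against 48.0 and 52.0 (0.92, SE 0.18, limma adjusted p = 0.0995), with no overlap.

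Other large differences were in genes outside the lists, and several were seen in 1 probe set of a gene only. Of the 24 probe sets with the largest differences in all 4 pairs, 13 (6 higher and 7 lower in number 1) had a mean signal under 50 in the lower number, so they passed the filter only through the higher one; among those here are Csnk1d, Bmpr2, Spin1, Nfyc, Thrap3, Cttn, Cwf19l1, Tm9sf3, Gtf2f2, Tmem129 and Lrrn1. Csnk1d 97264_r_at read 16.9 and 15.3 in number 1 and 120.1 and 127 in number 2. Of its other probe sets, 97263_s_at was lower (-1.11), 97262_at did not differ (0.01) and 162001_f_at was higher (0.53). Bmpr2, a receptor for bone morphogenetic proteins, was at 35.7 and 20.1 against 140.3 and 113 (-1.72, SE 0.23, limma adjusted p = 0.0702). Grb10, an imprinted adaptor that restrains growth, was at 161 and 56.4 against 329 and 363 (-1.68), and its second measured probe set was lower by 1.00. Spin1, a reader of histone marks, was lower in 3 of 4 probe sets (-1.10, -0.55, -0.63 and 0.09). For Nfyc (-1.03 and -0.01), Thrap3 (-1.31 and -0.21), Ssr3 (-1.27, -0.80 and -0.05) and Tmem129 (1.19 and -0.11) the probe sets of a gene did not give the same size. Actb, beta-actin of the cytoskeleton, was lower in both of its tested probe sets, 101578_f_at (73.8 and 46.0 against 169.6 and 244, -1.56) and 95705_s_at (92.5 and 31.7 against 167 and 165, -1.34). The 3' actin control probe set was far brighter and only slightly lower in both number 1 arrays (4956 and 4343 against 6054 and 5185). It did not show a difference of the size seen in the 2 dimmer probe sets. Cwf19l1 (1.79), Tm9sf3 (1.36), Gtf2f2 (1.28) and Nop58 (0.96) were higher and Cttn, the actin-binding cortactin, lower (-1.09) in both number 1 arrays. Rnf7, a ring finger protein of ubiquitin ligases, was at 144 and 154 against 68.8 and 70.3 (0.95, SE 0.17), and Lrrn1, a neuronal membrane protein, at 97.7 and 104 against 42.1 and 43.8 (0.99, SE 0.18).

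Among 587 genes with 2 or more tested probe sets, the differences of number 1 minus number 2 in a gene's brightest and next brightest probe sets correlated at r = 0.204, as a description, and 320 (54.5%) went the same way. Of the 48 whose brightest probe set differed by 0.5 or more, 29 (60.4%) did. Probe sets with the suffix r, i or f, whose probes were less specific by the array maker's naming, made up 12.5% of all tested, 22.1% of the 86 that differed by at least 1.5-fold in all 4 pairs and 54.5% of the 11 that differed by 2-fold. The cause of this was not tested.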

How the data were processed

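Gene expression was measured on 4 Affymetrix murine U74v2A arrays. Per the labels, the authors computed MAS5 signal intensities scaled to a target of 100; the deposited tables hold these intensities, with no detection calls. Of 49952 cells, 18515 (37.1%) held a spreadsheet day serial between 38718 and 38990 in place of a small signal and were turned back into day.month; 63 of these were in tested probe sets, 0.27% of the tested cells. No probe level data were used, so the authors' summarisation could not be varied.

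Control probe sets (66) were left out, and those whose mean signal was 50 or more (5783 probe sets) were tested as log2(signal + 16) with limma 3.58.1 in R 4.3.3 (eBayes with a trend, Benjamini-Hochberg adjustment, threshold 0.05), with the replicate number as the only term. A fit with treatment as a second term was an alternative; the others varied the offset, filter, scaling, variance trend, serials, arrays and probe set of a gene. On simulated data for this comparison over 5783 probe sets, limma recovered 95% of 2-fold and 100% of 4-fold changes, with 10.2 false calls a run. The simulated noise was independent, equal in spread on all arrays and free of a treatment effect. The real log2 differences had a standard deviation of 0.387 within number 1 and 0.221 within number 2. The simulated shares therefore do not give the recovery in these data. Genes were named from the platform annotation (10833 probe sets with 1 symbol, 396 with several, 1193 with none); a gene in a list was taken from its brightest probe set.

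The genes named were the 12 higher and 12 lower with the largest smallest difference over the 4 pairs of arrays, up to 10 per tissue list by size and up to 4 per other list by p, plus cell type markers; Ptch1, Gli1, Fgf4, Bmp4, Twist1, Hand1, Pgk1, Mylk, Cdkn1a, Tfrc and Acly were added after their values were seen. Members and lists were chosen with earlier results of these data known. The labels do not say that a number pairs samples.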

Additional observations from a re-analysis of the deposited data

Results flagged for a closer look

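These results had opposite signs in the DMSO arrays and the TCDD arrays. The median difference of number 1 minus number 2 in the DMSO pair was above that in the TCDD pair by 0.62 for muscle regulators, 0.25 for muscle membrane, calcium and energy genes, 0.23 for cornified and hair keratins, 0.10 for the mitochondrial respiratory chain and 0.07 for macrophage and leukocyte genes. For cholesterol synthesis the DMSO pair minus the TCDD pair was -0.22, for bone and mineralised tissue it was -0.12, and for proliferation genes it was also -0.12. The named probe sets were mostly chosen by the size or p of their difference, and 24 by their difference in all 4 pairs. That choice favours equal signs, so their count of opposite signs is no measure for all tested probe sets. Of 128 named probe sets 10 had opposite signs, and 1 of them did so by at least 0.25 in each pair. That was Eya1, a regulator of muscle and craniofacial precursors, which differed by 0.61 between the pairs (153 and 119 in DMSO 1 and DMSO 2, 85.7 and 108 in TCDD 1 and TCDD 2). The differences between the pairs were not tested, since each pair is 1 array against 1.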

How the results depend on the processing

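The count of probe sets past limma's adjusted p threshold was 1 and stayed 1 with an offset of 1 or 64, without the variance trend and with arrays centred on the median. It was 0 without a filter (1205 at an unadjusted p under 0.05), 0 with a mean signal of at least 100 (502) and 0 after quantile normalisation (709), and 5 with day serials set to 16. In the fit with treatment as a second term beside the replicate block it was 302; the differences within the DMSO and TCDD arrays correlated at 0.381, which with 2 pairs does not show that the numbers pair the samples, and adding the treatment term made 51 more of the named differences pass. Leaving out 1 array left 1 residual degree of freedom and a pooled variance, and gave 13 to 1325 calls: 1089 without DMSO 1, 27 without DMSO 2, 1325 without TCDD 1 and 13 without TCDD 2. With a number 1 array left out, the residual spread was that of the close number 2 arrays.

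The sarcomere median of 0.91 became 0.55 with an offset of 64, 0.30 without a filter, 0.69 with serials set to 16 and 0.58 to 0.90 without 1 array, lowest without DMSO 1 (0.58) and TCDD 1 (0.60). The tendon median of -0.03 was 0.021 without a filter, -0.10 in the DMSO pair, -0.15 in the TCDD pair and -0.149 to -0.055 without 1 array, nearest to 0 without DMSO 2. Without 1 array the bone median ran from -0.019 (without TCDD 1) to 0.22 (without DMSO 1), the epithelial from -0.283 (without TCDD 1) to 0.048 (without DMSO 1), the mesenchymal from -0.33 to -0.24 and the glycolytic from -0.32 to -0.23, the last being -0.16 in the TCDD pair. The median of the collagen modification list turned to 0.018 at a mean signal of at least 100. The cause of these shifts was not tested. Detection calls were not used here, so low signals have no measured background.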

Other observations

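Within number 1, DMSO 1 carried single values far from the other 3 arrays; these genes were picked after their values were seen and were not tested. Cdkn1a, the cell cycle inhibitor p21 that marks the enamel knot, was at 559 in DMSO 1 and at 75.4 in TCDD 1, 85.7 in DMSO 2 and 107 in TCDD 2. Tfrc, the transferrin receptor, was at 585 in DMSO 1 and at 287, 328 and 284 in the same order. Acly, which makes acetyl-CoA for lipid synthesis, was at 333 in DMSO 1 and at 746, 713 and 589. These genes differ between the numbers in the DMSO pair and not in the same way in the TCDD pair. The difference of TCDD minus DMSO within number 1 correlated with that within number 2 at r = 0.176 and rho = 0.135 over 5783 probe sets, as a description.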
